A study of Mus musculus with 24 samples.

Results

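The iron transport and storage genes are 10 members of the count tables, chosen by symbol: transferrin (Trf), its receptor (Tfrc), both ferritin subunits (Fth1, Ftl1), ferroportin (Slc40a1), the divalent metal transporter (Slc11a2), ceruloplasmin (Cp), the iron regulatory proteins (Aco1, Ireb2) and the hemochromatosis protein (Hfe). Each of the 10 matched 1 of the 33364 Ensembl identifiers counted. The rule uses no measured value, but the members were chosen with earlier results of these data known. Trf is among the mPFC DEGs (differentially expressed genes) that the study chose for qPCR. All 10 passed the low-count filter in every comparison. RNA was sequenced from punches of 2 frontal areas, the mPFC (medial prefrontal cortex) and the ACC (anterior cingulate). The mice were female and male C57BL/6 (C57BL/6J in the study's methods), 3 months old, at 2 weeks after surgery. Spared nerve injury (SNI), a model of neuropathic pain, severs all but the tibial branch of the sciatic nerve, and sham controls were operated on with the nerve unharmed. The 8 groups were female sham mPFC, female SNI mPFC, male sham mPFC, male SNI mPFC, female sham ACC, female SNI ACC, male sham ACC and male SNI ACC, with 3 libraries each, 24 in all. Per the study's methods each library was made from pooled mice, so single animals cannot be seen, and the error given is that between pools.

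Iron travels in blood and cerebrospinal fluid bound to transferrin, which cells take up through the transferrin receptor. In the brain, transferrin transcripts come mainly from oligodendrocytes, the myelinating cells, which are rich in iron and ferritin. Iron released from the endosome by the divalent metal transporter is used, stored in ferritin shells of heavy and light chains, or exported by ferroportin, the only known cellular iron exporter, with the help of the copper oxidases ceruloplasmin and hephaestin. The regulatory proteins encoded by Aco1 and Ireb2 bind a short stem loop, the iron responsive element, when cellular iron is low: bound before the coding sequence they block translation of ferritin and ferroportin, and bound after it they stabilise the receptor mRNA.

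These elements were read from the reference because they set how the members are known to be linked, and not because transcript counts test them. GENCODE M21 transcripts on build GRCm38 were searched on the transcribed strand for C, any 5 bases, CAGTG and any 6 bases, in which the 5 bases before CAGTG had to pair with the last 5 bases (G-T pairs allowed). The sites are printed 5′ to 3′, each 29 bases long, with the loop (CAGTG and the base after it) in capitals. A match was found in the annotated 5′ UTR of Fth1, Ftl1 and Slc40a1:
Fth1, chr19:9982732-9982760, plus strand: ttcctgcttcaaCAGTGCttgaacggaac
Ftl1, chr7:45459779-45459807, minus strand: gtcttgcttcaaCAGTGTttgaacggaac
Slc40a1, chr1:45925465-45925493, minus strand: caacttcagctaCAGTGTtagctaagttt
In the 3′ UTR, Tfrc held 4 matches, which differ at the last base of the loop and in the stem:
Tfrc, chr16:32631219-32631247, plus strand: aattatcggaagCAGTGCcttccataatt
Tfrc, chr16:32631598-32631626, plus strand: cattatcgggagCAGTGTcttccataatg
Tfrc, chr16:32631663-32631691, plus strand: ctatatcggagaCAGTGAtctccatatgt
Tfrc, chr16:32631710-32631738, plus strand: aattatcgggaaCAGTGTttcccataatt
Of 20916 genes with a 5′ UTR, 31 (0.148%) held a match, 3 of them members. Of 21039 genes with a 3′ UTR, 129 (0.613%) held one, 1 of them a member. A match is a description of the letters, and a gene without one may carry a variant that this search does not read.

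Library totals ran from 23853845 to 32864391 counts, with a median of 26727282. Levels are given in CPM, counts relative to the library total after TMM scaling. A difference is a log2 fold change from edgeR's quasi-likelihood F-test, and a gene was called a differentially expressed gene (DEG) at a Benjamini-Hochberg adjusted p under 0.1 over all genes tested in that comparison. The neuron markers summed to between 9161 and 10670 CPM in every library, so the labelled brain tissue had its main neuronal transcripts. Some libraries stood apart and bear on the members. The 20 oligodendrocyte markers summed to 1460 CPM in replicate 1 of the female SNI mPFC and to 2470 CPM in replicate 2 of the male SNI mPFC, against 3058 to 4982 CPM in the other 22 libraries. The 10 choroid plexus markers summed to 1033 CPM in replicate 1 of the female sham ACC and to 88.8 CPM in replicate 2 of the male SNI mPFC, against 5.48 to 14.0 CPM elsewhere. Albumin (Alb), a liver transcript, was at 25.2 CPM in replicate 1 of the male SNI ACC and at 7.06 and 2.04 CPM in replicates 1 and 2 of the male sham ACC, and at or below 0.146 CPM in the other libraries.

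The members spanned almost 3 orders of magnitude. Per kilobase of the longest coding transcript, the median level over the 24 libraries was 821 CPM for Fth1, the ferritin heavy chain that oxidises iron for storage, 196 for Ftl1, the light chain, and 83.4 for Trf. On the same length-scaled measure Tfrc stood at 19.5, Ireb2 at 11.3, Slc11a2 at 8.996, Aco1 at 7.42, Cp at 3.14, Slc40a1 at 2.95 and Hfe, which binds the transferrin receptor, at 1.02. Storage and carrier transcripts lay above those of uptake, export and regulation. The spread over libraries followed another order: the highest library was 3.97 times the lowest for Trf, 1.98 for Cp, 1.97 for Hfe, 1.64 for Slc40a1, 1.57 for Tfrc, 1.55 for Ireb2, 1.52 for Fth1, 1.28 for Ftl1, 1.2 for Slc11a2 and 1.19 for Aco1. The mean coefficient of variation within groups was 17% for Trf and 3.31% for Aco1, the widest and the narrowest of the 10.

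**Figure D1:**
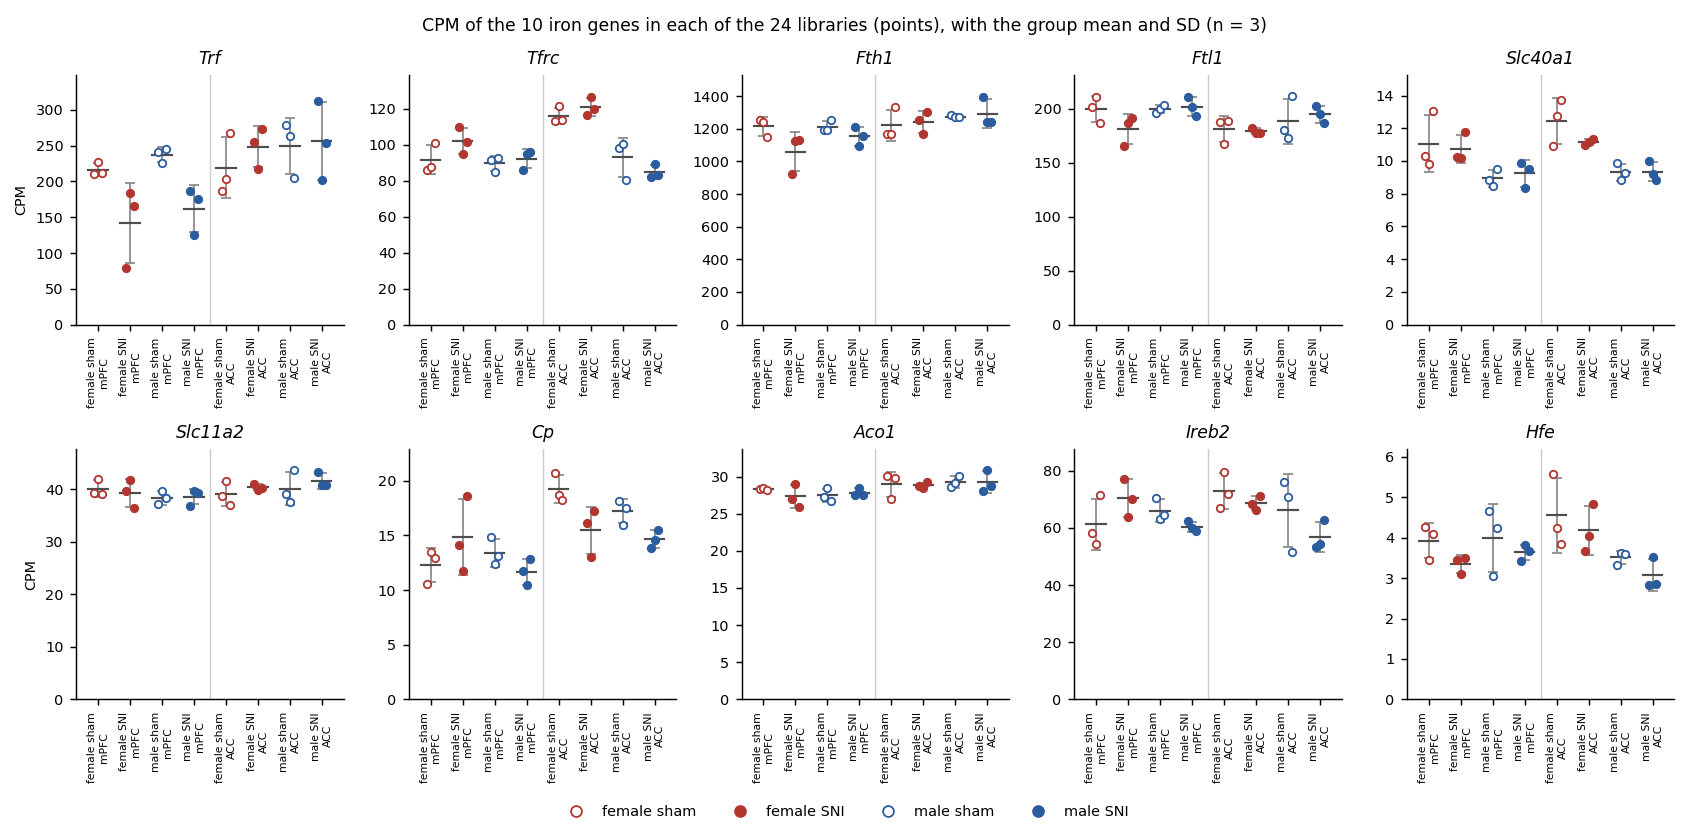
Level of each of the 10 genes in CPM (linear axis from 0) in every library, by group; points are libraries, horizontal bars group means, whiskers SD (n = 3), red female, blue male, filled SNI. Trf was lower in the SNI pools of the mPFC (78.6 to 186 CPM) than in the sham pools there (211 to 245 CPM), and Cp was highest in the sham ACC.

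Trf, the secreted iron carrier, was a DEG in the male mPFC, lower in the SNI than in the sham pools, and was lower in value but not called in the female mPFC. In the female mPFC it stood at 211, 227 and 212 CPM in the sham pools and at 78.6, 183 and 166 CPM in the SNI pools. In the male mPFC it stood at 241, 225 and 245 CPM in the sham pools and at 186, 125 and 175 CPM in the SNI pools. The groups did not overlap in either sex, and the SNI pools were lower than the sham pools in all 6 cases. Non-overlap held for 2 of 10 members in each sex (Trf and Fth1 in females, Trf and Ireb2 in males), against 15.0% of all genes in females and 16.9% in males. The male log2 difference was −0.54 (SE 0.10, edgeR adjusted p = 0.0607). It was the only member of the 10 called there, where 0.494% of all genes tested were called. In females the difference of −0.60 (SE 0.21) was as large in size but wider in error, with an unadjusted p of 0.0141 and an adjusted p of 0.401 in edgeR. None of the 10 members was called there by the edgeR analysis with the main settings or by DESeq2, 2 had an unadjusted p under 0.05 (12.1% of all genes had one), and 0.00592% of all genes were called. The median over the 10 members was −0.05 in females and −0.03 in males, against −0.003 and 0.001 over all genes tested.

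A model of the mPFC with both sexes gave Trf a value of −0.57 (SE 0.14, edgeR unadjusted p = 0.00104, adjusted p = 0.334, 12 libraries), and the sex by SNI interaction was −0.06 (SE 0.29, adjusted p = 0.943). Neither model called any member in the edgeR analysis with the main settings or in DESeq2, and 0% of all genes were called in either; 2 members had an unadjusted p under 0.05 in each, against 7.33% and 15.8% of all genes. With both sexes, edgeR called Trf with the replicate block (−0.62, adjusted p = 0.0950), with the GC correction and the block (−0.59, adjusted p = 0.0218) and without the low-count filter (−0.58, adjusted p = 1.18e-26). Without that filter 1.71% of all genes were called, against 0% with it. The fold change hardly moved, so that small p is not read as stronger evidence, and how it arose was not tested. The male call depended on single libraries: without replicate 1 of the sham pools the adjusted p was 0.121, without replicate 3 of the sham pools 0.296 and without replicate 3 of the SNI pools 0.107, with log2 fold changes of −0.53, −0.52 and −0.60. It was also lost in 1 model of all 24 libraries, with the same difference of −0.54 (SE 0.21, adjusted p = 0.693). Without the SNI pool that was lowest, replicate 2, the difference was −0.39 (SE 0.06, adjusted p = 0.0247). In females, without replicate 1 of the SNI pools, the difference fell to −0.31 (SE 0.07, adjusted p = 0.366). A correction for each library's trend with GC content, chosen after the counts were seen, left −0.56 in males (adjusted p = 0.110) and −0.54 in females (adjusted p = 0.707).

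In the ACC no difference in Trf passed the test. Its levels were 187, 204 and 267 CPM in female sham, 255, 217 and 273 CPM in female SNI, 279, 263 and 205 CPM in male sham and 312, 203 and 254 CPM in male SNI pools. The sham and SNI pools overlapped in both sexes. The test of the difference between the regions, the region by SNI interaction, was −0.79 (SE 0.29, unadjusted p = 0.0165, adjusted p = 0.428, edgeR) in females and −0.59 (SE 0.21, unadjusted p = 0.0135, adjusted p = 1.0) in males. No member was called in these interactions by the edgeR analysis with the main settings or DESeq2, with 0% of all genes called in each. An unadjusted p under 0.05 was held by 3 members in females (11.1% of all genes) and 1 in males (3.19%). Without replicate 1 of the female SNI mPFC the female interaction was −0.49 (SE 0.16, adjusted p = 0.425).

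By group mean, Trf ran from 142 ± 56.0 CPM (SD, n = 3) in the female SNI mPFC and 162 ± 32.7 in the male SNI mPFC, through 217 ± 9.25 in female sham mPFC pools, 219 ± 42.4 in the female sham ACC and 237 ± 10.5 in the male sham mPFC, to 249 ± 28.7 in the female SNI ACC, 249 ± 39.3 in the male sham ACC and 256 ± 54.6 in the male SNI ACC. From the female sham mPFC upward, neighbours in this order differed by less than the larger of their SDs. The SDs of the SNI groups in the mPFC were wide too, because each held 1 low pool.

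The Trf level moved with that of the oligodendrocyte markers (Pearson r of log2 values 0.983 and Spearman's rho 0.965 over the 24 libraries, which share depth and scaling, as a description; r was 0.982 with group means removed and 0.951 without the 2 libraries farthest from the median). Trf equalled between 5.05% and 6.53% of the summed CPM of the 20 markers in each of the 24 libraries, although that sum ranged from 1460 to 4982 CPM. The markers do not include Trf, so this is a ratio to their sum. In the female mPFC the ratio was 5.59, 5.66 and 5.99% in sham and 5.38, 5.49 and 5.41% in SNI pools. In the male mPFC it was 5.27, 5.62 and 5.64% in sham and 5.37, 5.05 and 5.46% in SNI pools. The ratios of sham and SNI pools overlapped in males, and in females the SNI ratios lay just below the sham ratios. The highest ratio, 6.53%, was that of replicate 1 of the male SNI ACC, the library with the most albumin RNA; Trf is also a liver transcript, and a part of that RNA in the value was not tested. In bulk tissue, fewer oligodendrocytes and less RNA per oligodendrocyte cannot be told apart.

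**Figure D2:**
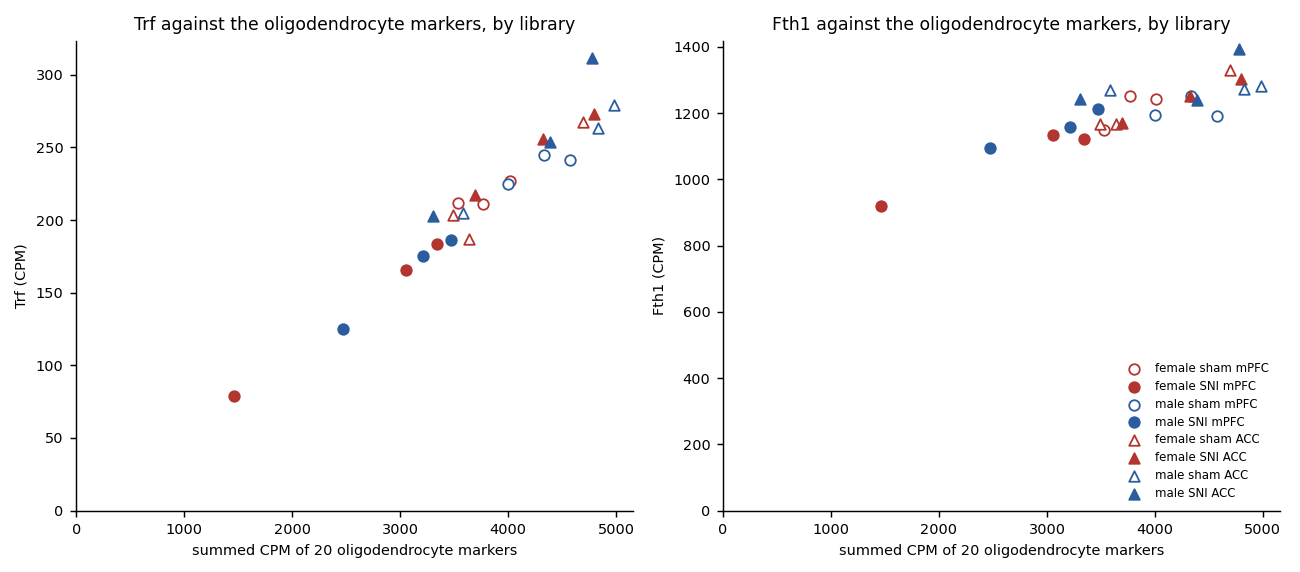
Trf (left) and Fth1 (right) in CPM against the summed CPM of 20 oligodendrocyte markers, each point 1 of the 24 libraries (red female, blue male, filled SNI, circles mPFC, triangles ACC; both axes start at 0). Trf lay at 5.05% to 6.53% of the marker sum throughout, with replicate 1 of the female SNI mPFC lowest on both axes (78.6 and 1460 CPM), whereas Fth1 changed less than the sum, at 25.7% to 63.0% of it.

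Of the 20 markers themselves, 11 were called in the male mPFC, all lower in SNI, where 0.494% of all genes were called. The median over the 20 was −0.48 on the log2 scale, against 0.001 over all genes tested. These calls depended on the settings. In 1 model of all 24 libraries 0 genes were called in that comparison. Without replicate 3 of the male sham mPFC only 7 of all genes were called, so not all 11 markers were. In the female mPFC none was called by edgeR and 13 had an unadjusted p under 0.05, with a median of −0.52 against −0.003. Mag, the myelin-associated glycoprotein, differed by −0.44 (SE 0.10, adjusted p = 0.0985, edgeR) in males and by −0.64 (SE 0.23, adjusted p = 0.401) in females. Their part in the Trf values was not tested. The 4 genes whose log2 CPM followed that of Trf most closely over the 24 libraries, among 18068 genes ranked, were Mag (Pearson r = 0.988), Plekhh1 (0.983), Plekhb1 (0.983) and Tmem88b (0.982). With group means removed these were 0.982, 0.979, 0.980 and 0.975, so the likeness was present among pools of 1 group. Mag is itself 1 of the 20 markers.

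After SNI, Trf differed between the regions in both sexes, whereas in the sham groups it did not pass the test with all libraries. The mPFC against ACC difference was −0.79 for female SNI (SE 0.22, adjusted p = 0.0213, edgeR) and −0.66 for male SNI pools (SE 0.15, adjusted p = 0.00813), with no overlap between the regions in either. For sham females it was −0.01 (SE 0.11, adjusted p = 0.968), and for sham males −0.06 (SE 0.10, adjusted p = 0.786). Without replicate 3 of the male sham ACC, the latter was −0.19 (SE 0.05, adjusted p = 0.0197), a call. These comparisons use the same mPFC SNI libraries as the SNI comparisons above, so they are not separate evidence. Without the lowest mPFC library of each sex, female SNI pools gave −0.51 (SE 0.08, adjusted p = 0.000543), and male ones gave −0.51 (SE 0.12, adjusted p = 0.0191). By DESeq2 the female SNI difference was −0.80 with an adjusted p of 0.134. The oligodendrocyte markers moved with it. In SNI mice 18 of 20 were called lower in the mPFC of females and 17 of 20 in that of males. Of all genes, 13.9% and 10.6% were called lower there. In the sham groups 3 of 20 were called lower in females and 0 in males, against 14.5% and 6.7% of all genes.

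Tfrc, the receptor that takes up the transferrin and iron complex, was lower in the mPFC than in the ACC of females. Female sham pools stood at 86.2, 87.9 and 101 CPM in the mPFC and at 113, 121 and 114 CPM in the ACC. Female SNI pools stood at 109.6, 94.9 and 101 CPM in the mPFC and at 116, 126 and 120.1 CPM in the ACC. The regions did not overlap in either treatment, and the differences were −0.33 (SE 0.07, adjusted p = 0.0101, edgeR) in sham and −0.24 (SE 0.06, adjusted p = 0.00901) in SNI females. In males the levels overlapped: 91.3, 85.1 and 92.6 CPM against 98.3, 100.2 and 80.4 CPM in sham, and 86.2, 94.8 and 95.8 CPM against 82.1, 89.1 and 83.4 CPM in SNI pools. The male differences were −0.04 (SE 0.09, adjusted p = 0.835) in sham and 0.12 (SE 0.06, adjusted p = 0.200) in SNI. Whether the region difference itself depends on sex was not tested. Of 10 endothelial markers, 6 were called lower in the mPFC of sham females and 4 in that of SNI females, against 14.5% and 13.9% of all genes. In males 5 were called lower in sham and 9 in SNI pools, against 6.7% and 10.6% of all genes. The part of endothelial cells in the Tfrc values was not tested.

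The female sham difference lost its call with the GC correction, which was chosen after the counts were seen; a part of GC content in it was not tested. Tfrc has a GC content of 39.8% over its transcript, and replicates 1 and 2 of the female sham mPFC had the steepest trends of level on GC (log2 slopes of 0.19 and 0.181 per 10% GC, against −0.0426 for replicate 3). With the GC correction the female sham difference was −0.09 (SE 0.04, adjusted p = 0.135), and the female SNI difference was −0.16 (SE 0.04, adjusted p = 0.0176). Between the sexes, Tfrc in the sham ACC stood higher in females than in males without overlap, by 0.32 (SE 0.08, unadjusted p = 0.0035, adjusted p = 0.549, edgeR), and by 0.23 (SE 0.04, adjusted p = 0.0429) after the GC correction. The male pool that was lowest, replicate 3 of the sham ACC, had a slope of 0.172, and without it the sex difference was 0.23 (adjusted p = 0.129). In the sham mPFC the sexes differed by 0.04 (SE 0.07). With all libraries, no SNI comparison gave Tfrc an unadjusted p under 0.05. Calls appeared when 1 library was left out: without replicate 3 of the female sham mPFC the female mPFC difference was 0.22 (SE 0.07, adjusted p = 0.0700). Without replicate 3 of the male sham ACC, the male ACC difference was −0.23 (SE 0.06, adjusted p = 0.0513), the sex by SNI interaction in the ACC 0.28 (SE 0.07, adjusted p = 0.0449) and the male sham region difference −0.14 (SE 0.05, adjusted p = 0.0796). The 4 genes most like Tfrc over the 24 libraries were Megf9 (Pearson r = 0.910), B3galt1 (0.908), Tbl1xr1 (0.903) and Zfand5 (0.901), which fell to 0.759, 0.726, 0.867 and 0.849 with group means removed.

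Fth1, the most abundant member, followed Trf at a smaller size. In the female mPFC it was at 1252, 1242 and 1149.7 CPM in sham and at 920.2, 1122 and 1134 CPM in SNI pools, a difference of −0.20 (SE 0.08, unadjusted p = 0.0352, adjusted p = 0.413, edgeR). The pools did not overlap, but the difference rested largely on replicate 1 of the SNI pools: without it the value was −0.11 (SE 0.07, adjusted p = 0.670). Without replicate 3 of the sham pools it was −0.24 (SE 0.08, adjusted p = 0.0916), a call. In the male mPFC it was at 1192.5, 1195 and 1252 CPM in sham and at 1212, 1096 and 1158.5 CPM in SNI pools, which overlapped. With both sexes in 1 model of the mPFC the difference was −0.13 (SE 0.05, unadjusted p = 0.0237, adjusted p = 0.588), and −0.08 (adjusted p = 0.825) without replicate 1 of the female SNI pools.

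Between the regions Fth1 was a DEG in the SNI groups of both sexes, lower in the mPFC. The difference was −0.22 for female SNI pools (SE 0.07, adjusted p = 0.0481, edgeR) and −0.17 for male SNI pools (SE 0.06, adjusted p = 0.0791), without overlap in either. For sham pools it was 0.00 (SE 0.06) in females and −0.06 (SE 0.06) in males, neither called. The male sham regions did not overlap either, with the mPFC lower. The region by SNI interaction for Fth1 was −0.22 (SE 0.11, adjusted p = 0.453) for females and −0.10 (SE 0.08, adjusted p = 1.0) for males. The difference between the female SNI regions was smaller without replicate 1 of the SNI mPFC (−0.13, SE 0.04, adjusted p = 0.0421), and its call was lost without replicate 1 or replicate 3 of the SNI ACC (adjusted p = 0.140 and 0.170). The male call was lost without replicate 1 of the SNI ACC (−0.11, adjusted p = 0.295), replicate 2 of the SNI mPFC (−0.13, adjusted p = 0.276) or replicate 3 of the SNI mPFC (−0.17, adjusted p = 0.167), and also in 1 model of all 24 libraries (−0.17, adjusted p = 0.123). Fth1 equalled 63.0% of the summed oligodendrocyte markers in replicate 1 of the female SNI mPFC and 33.6% and 37.1% in the other pools of that group, so it did not keep the near-constant ratio that Trf kept. The ACC levels were 1167, 1167 and 1332 CPM in female sham, 1251, 1171 and 1302 CPM in female SNI, 1281, 1271 and 1271 CPM in male sham and 1395, 1243 and 1240.5 CPM in male SNI pools.

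Ftl1, the light chain, stayed between 166 and 212 CPM in all 24 libraries and was called in none of the 16 comparisons in the main analysis. Its smallest unadjusted p was that of the female sham regions, where the mPFC (202, 211 and 186 CPM) lay above the ACC (187, 167 and 188 CPM) by 0.15 (SE 0.07, unadjusted p = 0.0497, adjusted p = 0.145, edgeR), with overlapping pools. With the GC correction that difference was −0.01, so its direction turned, and without replicate 3 of the sham mPFC it was 0.20 (adjusted p = 0.0274). Between the male sham regions it was 0.19 (adjusted p = 0.0107) without replicate 3 of the sham ACC, against 0.09 (SE 0.08) with it. The count of Ftl1 is uncertain, because 78.6% of the 100-base stretches of its transcript also occur in Ftl1-ps1, Ftl2-ps or other loci. How the counting treated such reads is not given in the sources used here. Ftl1-ps1 held 14 to 51 counts per library.

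**Figure D3:**
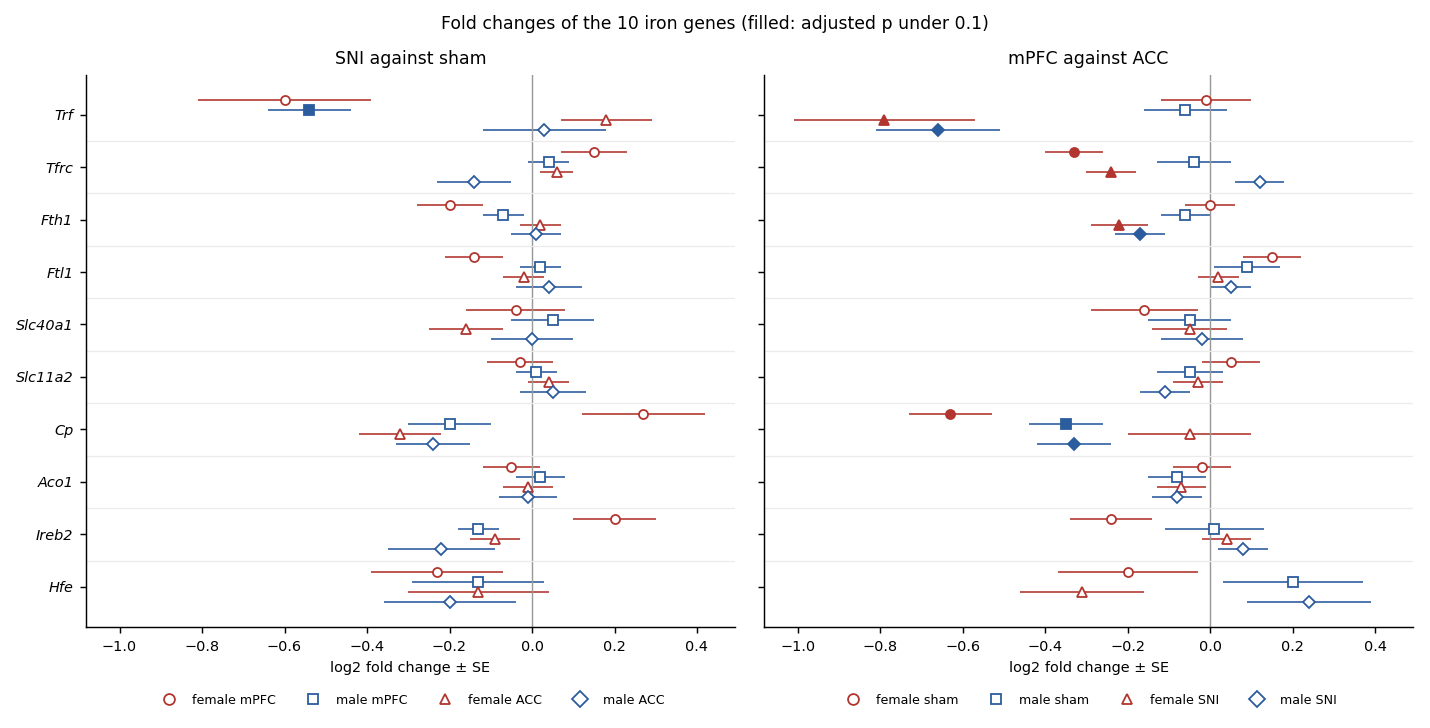
Log2 fold change ± SE of the 10 genes for SNI against sham (left, in 4 sex and region groups) and for mPFC against ACC (right, in 4 sex and treatment groups), each from 6 libraries; red female, blue male, filled where the adjusted p was under 0.1. Trf in the male mPFC (−0.54) was the only filled point on the left, and Trf, Tfrc, Fth1 and Cp held all 9 filled points on the right, each below 0.

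Cp, the copper oxidase that loads exported iron onto transferrin and that astrocytes anchor at their surface, was a DEG between the regions in 3 of the 4 groups, lower in the mPFC. In the ACC its SNI pools lay below its sham pools in both sexes, without passing the correction. In the sham ACC it stood at 20.7, 18.7 and 18.25 CPM in females and at 18.2, 15.99 and 17.5 CPM in males. In the sham mPFC it stood at 10.5, 13.5 and 12.9 CPM in females and at 14.8, 12.35 and 13.1 CPM in males. The region difference was −0.63 for sham females (SE 0.10, adjusted p = 0.00209, edgeR) and −0.35 for sham males (SE 0.09, adjusted p = 0.0375), without overlap in either sex. After SNI it was −0.33 (SE 0.09, adjusted p = 0.0275) in males, again without overlap, and −0.05 (SE 0.15, adjusted p = 0.852) in females, whose mPFC pools of 14.1, 11.8 and 18.6 CPM overlapped the ACC pools of 16.2, 13.004 and 17.2 CPM. With the GC correction the sham values were −0.44 (adjusted p = 0.00938) and −0.34 (adjusted p = 0.0266). The male sham call was lost without replicate 1 of the ACC (adjusted p = 0.120), replicate 2 of the mPFC (0.169) or replicate 3 of the mPFC (0.152), and the male SNI call without replicate 2 of the mPFC (−0.27, adjusted p = 0.111).

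In the ACC, the SNI pools of males stood at 13.9, 14.6 and 15.5 CPM, below all 3 sham pools, and those of females (above) also lay below theirs. Female pools differed by −0.32 (SE 0.10, unadjusted p = 0.00574, adjusted p = 0.617, edgeR), and male pools by −0.24 (SE 0.09, unadjusted p = 0.0203, adjusted p = 0.768). Both failed the correction over all genes. The 2 sexes in 1 model gave −0.27 (SE 0.07, unadjusted p = 0.00104, adjusted p = 0.814), and the sex by SNI interaction in the ACC was −0.10 (SE 0.14, adjusted p = 0.860). These comparisons use the same sham ACC libraries as the region comparisons of Cp. Cp was the only member with an unadjusted p under 0.05 in each of the female ACC, the male ACC and the model with both sexes, and no member was called in these or in the interaction by the edgeR analysis with the main settings or DESeq2, where no member had an unadjusted p under 0.05. An unadjusted p under 0.05 was held by 6.67% of all genes in the female ACC, 4.48% in the male ACC, 5.56% in the model with both sexes and 5.92% in the interaction. The share of all genes called was 0.0240% in the female ACC, 0.00599% in the male ACC and 0% in both 12-library models. Cp was 1 of 10 members whose pools did not overlap in each of the ACC comparisons, against 11.8% of all genes in females and 8.19% in males. With the GC correction the male value was −0.11 (SE 0.10, adjusted p = 0.918), and without replicate 2 of the SNI ACC the female value was −0.21 (SE 0.08, adjusted p = 0.883).

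Cp in the female mPFC went the other way in value, at 0.27 (SE 0.15, adjusted p = 0.465), with pools that overlapped. The region by SNI interaction in females was 0.59 (SE 0.20, unadjusted p = 0.0104, adjusted p = 0.428, edgeR), and the sex by SNI interaction in the mPFC was 0.47 (SE 0.20, unadjusted p = 0.0301, adjusted p = 0.276). Neither passed the correction; without replicate 3 of the female sham mPFC the region by SNI interaction was 0.63 (SE 0.22, adjusted p = 0.0994). Without replicate 3 of the female SNI mPFC, the highest pool of its group, it was 0.38 (SE 0.17, adjusted p = 0.612) and the sex by SNI interaction 0.27 (SE 0.17, adjusted p = 0.504); with the GC correction the latter was also 0.27 (adjusted p = 0.955).

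Markers of other cells also differed between libraries and regions, but not always in the direction of Cp. The highest Cp library, replicate 1 of the female sham ACC, was the one with 1033 CPM of choroid plexus markers, of which transthyretin (Ttr) made 871 CPM against at most 72.5 CPM elsewhere; choroid plexus also makes Cp. Without that library the female sham region difference was −0.58 (SE 0.11, adjusted p = 0.00731), the female ACC difference after SNI −0.26 (SE 0.10, adjusted p = 0.928) and the female region by SNI interaction 0.52 (SE 0.21, adjusted p = 0.502). The 8 meningeal fibroblast markers summed to 229, 134 and 152 CPM in female sham ACC, 114, 114 and 114 CPM in female SNI ACC, 89.6, 102 and 111 CPM in female sham mPFC and 115, 99.8 and 137 CPM in female SNI mPFC pools. In males they summed to 150, 107 and 188 CPM in sham ACC, 107, 162 and 127 CPM in SNI ACC, 99.9, 87.1 and 85.8 CPM in sham mPFC and 83.8, 76.7 and 107 CPM in SNI mPFC pools. Astrocyte markers summed to between 4820 and 5776 CPM in the ACC and between 4468 and 5295 CPM in the mPFC. Endothelial markers summed to between 374 and 412 CPM in the ACC and between 307 and 377 CPM in the mPFC. In the ACC the astrocyte markers averaged 5669 CPM in sham and 5755 CPM in SNI females, and 5358 and 5217.5 CPM in males. Endothelial markers there averaged 405 and 402 CPM in females, and 385 and 395 CPM in males. The part of these cells in the Cp values was not tested. The 4 genes most like Cp over the 24 libraries were Cav1 (Pearson r = 0.893), a caveolar protein of vessels, Colec12 (0.879), Ecm2 (0.873) and Gbp2 (0.866), and with group means removed these were 0.735, 0.667, 0.702 and 0.613.

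Slc40a1, which carries iron out of cells, stood higher in females than in males, a difference that did not pass the correction in the main analysis. It was called in the sham mPFC with the GC correction and the replicate block (0.40, adjusted p = 0.0606, edgeR), and in the sham ACC in 1 model of all 24 libraries (0.41, adjusted p = 0.0981). The mPFC value without replicate 3 of the female sham mPFC was 0.17 (SE 0.10, adjusted p = 0.320). In the sham ACC it stood at 10.9, 12.7 and 13.7 CPM in females and at 9.88, 8.84 and 9.25 CPM in males. In the sham mPFC it stood at 10.3, 9.80 and 13.1 CPM in females and at 8.83, 8.49 and 9.51 CPM in males. The sexes did not overlap in either region, and the differences were 0.41 (SE 0.11, unadjusted p = 0.00312, adjusted p = 0.543, edgeR) in the ACC and 0.31 (SE 0.12, unadjusted p = 0.0218, adjusted p = 0.398) in the mPFC. The sham libraries are those of the comparisons above. In the edgeR fit with the main settings and in DESeq2 none of the 10 members was called between the sexes, with 2 in the ACC and 1 in the mPFC at an unadjusted p under 0.05 (6.64% and 10.6% of all genes). The share of all genes called was 0.0958% in the ACC and 0.177% in the mPFC. Non-overlap held for 4 of 10 members in the ACC and 1 of 10 in the mPFC, against 13.5% and 14.7% of all genes.

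The SNI libraries, which these tests did not use, gave 10.995, 11.2 and 11.3 CPM in female and 9.9987, 9.18 and 8.85 CPM in male ACC pools, and 10.3, 10.2 and 11.7 CPM in female and 9.88, 8.33 and 9.49 CPM in male mPFC pools. There too each female pool was above each male pool of its region. Between SNI and sham, and between the regions, Slc40a1 had no unadjusted p under 0.05 in any group, with log2 fold changes from −0.16 to 0.05. Without replicate 3 of the female sham mPFC the female sham region difference was −0.30 (SE 0.11, adjusted p = 0.0613), a call.

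Of the regulatory proteins, neither was called in the main analysis. Ireb2, the regulatory protein that is degraded when iron is plentiful, stood at 70.5, 63.1 and 64.5 CPM in sham and at 62.4, 59.8 and 58.8 CPM in SNI pools of the male mPFC, without overlap. The difference was −0.13 (SE 0.05, unadjusted p = 0.0349, adjusted p = 0.395, edgeR). It was −0.05 (adjusted p = 0.822) with the GC correction and −0.08 (adjusted p = 0.628) without replicate 1 of the sham pools. In the female mPFC it stood at 58.1, 54.2 and 71.4 CPM in sham and at 77.0, 63.8 and 70.3 CPM in SNI pools, a value of 0.20 (SE 0.10) with overlap. The sex by SNI interaction in the mPFC was 0.33 (SE 0.13, unadjusted p = 0.0187, adjusted p = 0.248), and the region by SNI interaction in females was 0.29 (SE 0.13, unadjusted p = 0.0464, adjusted p = 0.446). Replicate 3 of the female sham mPFC was the highest of its group. Without it these were 0.44 (adjusted p = 0.0156) and 0.41 (adjusted p = 0.0456), the female mPFC difference after SNI was 0.32 (adjusted p = 0.0421) and the difference between the sexes in the sham mPFC was −0.23 (adjusted p = 0.0433), all called. With the GC correction and all libraries, the interactions were 0.08 (adjusted p = 0.960) and 0.11 (adjusted p = 0.718). In the male ACC the difference after SNI was −0.37 (adjusted p = 0.0343) without replicate 3 of the sham pools, which was the lowest of them, and between the male SNI regions it was 0.15 (adjusted p = 0.0753) without replicate 3 of the SNI ACC. Between the female sham regions Ireb2 differed by −0.24 (SE 0.10, unadjusted p = 0.0304, adjusted p = 0.105). DESeq2 called it (−0.24, adjusted p = 0.0650), as did edgeR without the low-count filter (−0.25, adjusted p = 0.00533), which also called the sex by SNI interaction (0.31, adjusted p = 0.0796). The region value was −0.29 (adjusted p = 0.0927) without replicate 1 of the sham ACC and −0.36 (adjusted p = 0.00270) without replicate 3 of the sham mPFC. With the GC correction it was 0.02 (adjusted p = 0.854), so its direction turned; the transcript of Ireb2 has 39.0% GC, the lowest of the members. The ACC levels were 67.0, 79.6 and 71.9 CPM in female sham, 68.2, 66.4 and 71.3 CPM in female SNI, 75.9, 70.9 and 51.5 CPM in male sham and 53.3, 54.5 and 62.8 CPM in male SNI pools.

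Aco1, the other regulatory protein and a cytosolic aconitase when iron is present, was the steadiest of the 10, between 25.9 and 30.9 CPM in all libraries. Its log2 fold changes lay between −0.08 and 0.05 in all 16 comparisons, and none had an unadjusted p under 0.05. Slc11a2, which moves iron across the endosomal membrane, stayed between 36.5 and 43.8 CPM, with log2 fold changes from −0.11 to 0.07 and no unadjusted p under 0.05. Hfe, which competes with transferrin for its receptor, was the least abundant, between 2.83 and 5.59 CPM (74 to 140 counts), with a mean coefficient of variation within groups of 12%. Its differences ran from −0.31 to 0.37 without an unadjusted p under 0.05, with SEs of 0.11 to 0.23.

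Counted over the regions, 2 of 10 members (Tfrc, Cp) were called in sham females, where 28.5% of all genes were called, and 1 of 10 (Cp) in sham males, where 14.2% were called. In the SNI groups 3 of 10 (Trf, Tfrc, Fth1) were called in females against 27.6% of all genes, and 3 of 10 (Trf, Fth1, Cp) in males against 21% of all genes. These shares of members lie near those of all genes tested. All 9 calls were lower in the mPFC, where 14.5%, 6.7%, 13.9% and 10.6% of all genes were called lower in sham females, sham males, SNI females and SNI males. The regions did not overlap for 2, 3, 4 and 4 members in the same order, against 37.7%, 28.0%, 37.6% and 32.8% of all genes. The median log2 fold change of the 10 members was −0.09 in sham females, −0.05 in sham males, −0.06 in SNI females and −0.05 in SNI males, against 0.002, 0.011, 0.003 and 0.003 over all genes tested.

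Of the other genes of the iron pathway, a list of 44 genes matched in the tables with uptake, reduction, oxidation, hormone, mitochondrial, iron-sulfur and heme functions, 35 to 38 were tested in each comparison. Between the regions, 14 of 36 were called in sham females (5 higher and 9 lower in the mPFC), 7 of 37 in sham males (2 and 5), 11 of 35 in SNI females (3 and 8) and 7 of 36 in SNI males (0 and 7), against the shares of all genes given above. With 1 library left out these counts ranged from 7 to 15 in sham females (7 without replicate 3 of the ACC, 8 without replicate 2 of the ACC or replicate 1 or 2 of the mPFC), and from 2 to 11 in sham males (2 without replicate 2 of the mPFC, 4 without replicate 3 of the mPFC or replicate 1 or 2 of the ACC, 11 without replicate 3 of the ACC). They ranged from 9 to 12 in SNI females, and from 3 to 9 in SNI males (3 without replicate 1 of the ACC or replicate 2 of the mPFC, 4 without replicate 1 or 3 of the mPFC). Over all genes the share called with 1 library left out ranged from 13.3% to 41.5% in sham females and from 6.61% to 27% in sham males. In SNI females it ranged from 16.7% to 31.6%, and in SNI males from 12.4% to 22.3%. The GC correction gave 12 in sham males, against 26.6% of all genes, and with the replicate block 8 in sham females, against 20.8%. In all, 18 genes were called at least once and 4 of them (Heph, Hjv, Steap2, Slc25a37) in all 4 comparisons, each lower in the mPFC. The share of all genes called as often is not given here, so these counts are a description only. The median over the list was −0.04, −0.04, −0.07 and −0.05 in the same order.

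Heph, the membrane copper oxidase related to Cp, was called in all 4 groups. It stood at 3.65, 4.07 and 2.97 CPM in the mPFC and 5.59, 5.16 and 5.66 CPM in the ACC of sham females, and at 3.39, 3.79 and 3.13 CPM and 6.84, 4.4 and 6.27 CPM in those of sham males. The region difference was −0.60 (SE 0.15, adjusted p = 0.0176, edgeR) for sham females, −0.76 (SE 0.17, adjusted p = 0.0185) for sham males, −0.78 (SE 0.16, adjusted p = 0.00514) for SNI females and −0.82 (SE 0.15, adjusted p = 0.00240) for SNI males. The regions did not overlap in any of the 4 groups.

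Slc25a37, mitoferrin, which imports iron into mitochondria, was lower in the mPFC in sham males (−0.37, SE 0.07, adjusted p = 0.00710, edgeR) and in SNI males (−0.29, SE 0.06, adjusted p = 0.00517). Steap2, a metalloreductase, differed by −0.78 (SE 0.12, adjusted p = 0.00188) in sham females. Bmp6, the signal that induces hepcidin in liver, differed by −0.67 (SE 0.17, adjusted p = 0.0304) in sham males and −0.41 (SE 0.13, adjusted p = 0.0543) in SNI males. The sham call of Bmp6 was lost without replicate 2 (adjusted p = 0.122) or 3 (0.138) of the sham mPFC, and its SNI call without replicate 2 of the SNI ACC (−0.23, adjusted p = 0.194), without replicate 2 (0.114) or 3 (0.155) of the SNI mPFC, or in 1 model of all 24 libraries (0.142). In sham females Abcb10, a mitochondrial transporter, was higher in the mPFC by 0.34 (SE 0.07, adjusted p = 0.00558). Cybrd1, a ferric reductase, was higher in the mPFC by 0.81 (SE 0.21, adjusted p = 0.0314) in sham males and by 1.05 (SE 0.24, adjusted p = 0.00796) in SNI females. The male call of Cybrd1 was lost without replicate 1 or 2 of the sham mPFC (adjusted p = 0.114 and 0.118) or replicate 2 of the sham ACC (0.122). In SNI females Isca1, an iron-sulfur cluster assembly protein, differed by −0.21 (SE 0.04, adjusted p = 0.00450) and Ncoa4, the receptor that delivers ferritin to autophagy, by −0.20 (SE 0.04, adjusted p = 0.00627). In SNI males Isca1 differed by −0.18 (SE 0.05, adjusted p = 0.0259), a call lost without replicate 1 of the SNI ACC (adjusted p = 0.116).

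**Figure D4:**
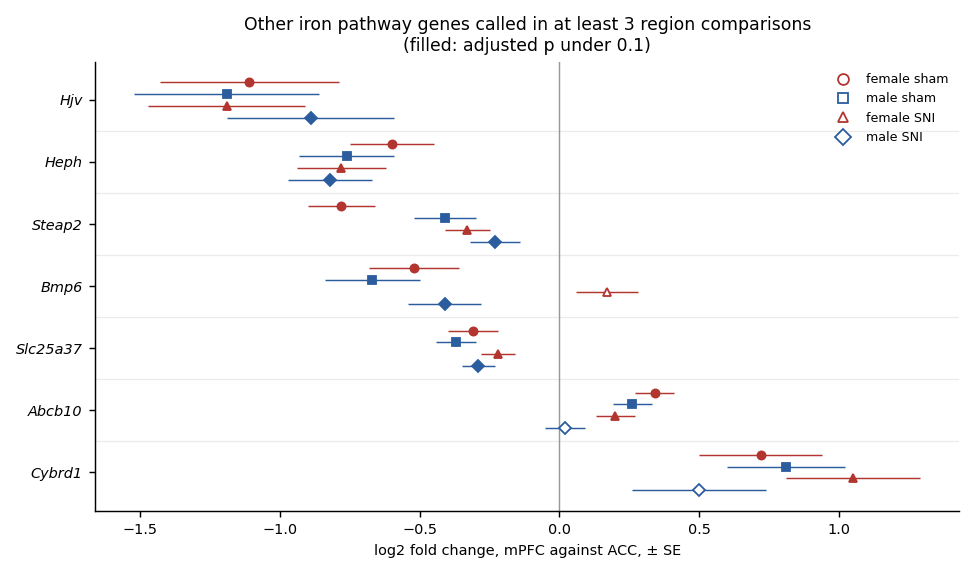
Log2 fold change ± SE, mPFC against ACC, of the other iron pathway genes that were called in at least 3 of the 4 region comparisons (red female, blue male; circles and squares sham, triangles and diamonds SNI; filled where the adjusted p was under 0.1). Heph, Hjv, Steap2 and Slc25a37 are filled and below 0 in all 4, and Cybrd1 lies above 0 in all 4.

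After SNI none of the other pathway genes was called in any of the 4 groups by the edgeR analysis with the main settings, where an unadjusted p under 0.05 was held by 4 of 35 (mPFC, females, against 12.1% of all genes), 2 of 36 (mPFC, males, against 11.2%), 5 of 36 (ACC, females, against 6.67%) and 2 of 38 (ACC, males, against 4.48%); DESeq2 called 1, Bmp6 in the female ACC (−0.55, adjusted p = 0.0466). Of all genes in the female ACC, DESeq2 called 0.222%. Among the smallest p were those of Abcb10 (−0.23, SE 0.08, adjusted p = 0.401, edgeR) and Steap2 (0.30, SE 0.10, adjusted p = 0.401) in the female mPFC, and Ncoa4 (−0.17, SE 0.05, adjusted p = 0.201) and Lcn2 (−1.57, SE 0.50, adjusted p = 0.241) in the male mPFC. In the ACC they included Bmp6 (−0.55, SE 0.13, adjusted p = 0.476) in females and Lcn2 (−1.74, SE 0.77, adjusted p = 0.768) in males. In the female ACC, Bmp6 stood at 20.3, 13.5 and 14.2 CPM in sham and at 10.5, 10.9 and 11.5 CPM in SNI pools, without overlap. Its highest pool was the one with the choroid plexus RNA, and without that pool its difference was −0.34 (SE 0.08, adjusted p = 0.634). The female mPFC values were −0.15 for Abcb10 and 0.12 for Steap2 with the GC correction, and without replicate 2 of the male SNI ACC that of Lcn2 in the male ACC was −2.65 (adjusted p = 0.977). In the female mPFC 4 genes were called without replicate 3 of its sham pools, against 15.9% of all genes under the same omission, and without replicate 3 of the male sham ACC 4 in the male ACC, against 13.5%. Among the named genes, Steap2 was called without replicate 3 of the female sham mPFC (0.32, adjusted p = 0.0951), Lcn2 without replicate 2 of the male sham mPFC (−2.0, adjusted p = 0.0810), whose value was −0.60 (adjusted p = 0.611) without replicate 1 of those pools, and Bmp6 without replicate 2 of the female sham ACC (−0.65, adjusted p = 0.0752). With all libraries, Ncoa4 and Lcn2 in the male mPFC were called without the low-count filter (adjusted p = 0.0952 and 5.41e-06), with the replicate block (0.0391 and 0.0653) and with the GC correction and the block (0.0919 and 0.0827), and Bmp6 in the female ACC without the low-count filter (2.90e-07). Without that filter 2.01% of all genes were called in the male mPFC, against 0.494%, and 1.38% in the female ACC, against 0.024%. How these small p arose was not tested.

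Between the sexes none of the other pathway genes was called by the edgeR analysis with the main settings or DESeq2, with 7 of 36 in the sham mPFC (10.6% of all genes) and 4 of 37 in the sham ACC (6.64%) at an unadjusted p under 0.05. Lcn2, a secreted protein that binds iron-carrying siderophores and that inflammation induces, had the smallest p in both regions. In the sham mPFC it stood at 0.190, 0.148 and 0.124 CPM in females and at 3.75, 0.583 and 1.34 CPM in males, a difference of −3.57 (SE 0.70, adjusted p = 0.117, edgeR) without overlap. In the sham ACC it stood at 0.120, 0.161 and 0.596 CPM in females and at 2.78, 0.314 and 3.41 CPM in males, a difference of −2.86 (SE 0.79, adjusted p = 0.587) with overlap. It was called in the mPFC without replicate 3 of the female (−3.45, adjusted p = 0.0240) or replicate 2 of the male sham pools (−4.00, adjusted p = 0.0149). In the ACC it was called without replicate 2 of the male sham pools (−3.36, adjusted p = 0.0377). With 1 library left out, Lcn2 differed by −4.0 to −2.6 in the mPFC and by −3.92 to −2.37 in the ACC. With all libraries it was called in the mPFC under 4 of 8 alternatives: no low-count filter (−3.57, adjusted p = 9.65e-16), the replicate block (−3.44, adjusted p = 0.00278), the GC correction (−3.64, adjusted p = 0.0593) and the GC correction with the block (−3.53, adjusted p = 0.00297). In the ACC it was called under 2 of 8, no low-count filter (−2.85, adjusted p = 0.0131) and the GC correction with the block (−2.78, adjusted p = 0.0687). Without that filter 1.58% of all genes were called in the mPFC, against 0.177%, and 0.399% in the ACC, against 0.0958%. Lcn2 was then near its main fold change in both regions, and how its small p arose was not tested. Abcb10 was next in the mPFC (0.20, SE 0.06, adjusted p = 0.339) and Frrs1, a ferric reductase, in the ACC (0.76, SE 0.27, adjusted p = 0.684, and 0.46 without replicate 1 of the female sham ACC).

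In the models of 12 libraries the edgeR analysis with the main settings called none of the other pathway genes. Without the low-count filter it called 2 with both sexes in the mPFC (1.71% of all genes were called then), 3 in the sex by SNI interaction of the mPFC (2.79%) and 4 in the female region by SNI interaction (2.16%). Without replicate 3 of the female sham mPFC it called 6 in that sex by SNI interaction (against 18.3% of all genes under the same omission) and 5 in that region by SNI interaction (against 11.6%). It called 4 without replicate 3 of the male sham ACC in the sex by SNI interaction of the ACC (against 9.65%). With both sexes, 3 of 36 in the mPFC and 4 of 38 in the ACC had an unadjusted p under 0.05, against 7.33% and 5.56% of all genes; the smallest included those of Abcb10 (−0.14, SE 0.06, adjusted p = 0.574, edgeR) and Slc25a37 (0.13, SE 0.05, adjusted p = 0.624) in the mPFC, and that of Bmp6 (−0.39, SE 0.14, adjusted p = 0.814) in the ACC. For the sex by SNI interaction 6 of 36 in the mPFC and 3 of 38 in the ACC had such a p, against 15.8% and 5.92% of all genes, among them Ncoa4 in the mPFC (0.24, SE 0.08, adjusted p = 0.223), called without replicate 3 of the female sham mPFC (adjusted p = 0.0297) and at 0.14 with the GC correction, and Abcb10 in the ACC (−0.26, SE 0.09, adjusted p = 0.753), called without replicate 3 of the male sham ACC (adjusted p = 0.0711). For the region by SNI interaction 6 of 36 in females and 1 of 38 in males had such a p, against 11.1% and 3.19% of all genes. Bmp6 (0.69, SE 0.21, adjusted p = 0.428) and Steap2 (0.45, SE 0.15, adjusted p = 0.428) led in females and were called without replicate 3 of the female sham mPFC (adjusted p = 0.0464 and 0.0945), with Steap2 at 0.29 under the GC correction, and Abcb10 (−0.23, SE 0.10, adjusted p = 1.0) and Meltf (0.71, SE 0.43, adjusted p = 1.0, and 0.45 without replicate 3 of the male sham ACC) led in males. DESeq2 called 2 genes, Ncoa4 among them, in the sex by SNI interaction of the mPFC, against 4.57% of all genes. It called none in the other 5 models.

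Trf shares reads with another annotated gene. Of the 100-base stretches of its longest coding transcript, 77.3% also occur in Gm20425, a gene model on the same strand that shares 2108 exon bases with it. Gm20425 held 0 to 192 counts per library, against 1866 to 8138 for Trf. How the counting treated reads that fit both is not given in the sources used here, so the level of Trf is uncertain in that respect. Of Fth1 0.573% of the stretches were shared, and of the other 7 members none. Cp shares 108 exon bases with Hps3 on the opposite strand, and whether the counting used strand is not given in the sources used here.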

How the data were processed

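RNA was sequenced in 24 libraries, 3 in each of 8 groups of sex, treatment and region. The authors deposited 4 tables of raw counts, 1 for each sex and region; the region of a column is that of its table. Per the submitters' processing notes reads were trimmed with Trimmomatic 0.36, cleared of rRNA with Bowtie2 2.33, mapped to GRCm38 with HISAT2 2.1.0, counted with HTSeq 0.9.1 and tested with edgeR 3.34.0. The annotation release and strand mode are not given in the sources used here. All 33364 identifiers have an entry in GENCODE M21, which gave symbols, positions, transcripts and GC content.

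Counts were analysed in R 4.3.3 with edgeR 4.0.16 (filterByExpr with a minimum count of 10 and a total of 15, TMM, legacy quasi-likelihood F-test). DEGs had a Benjamini-Hochberg adjusted p under 0.1 over all genes tested. Comparisons of 2 groups used their 6 libraries, and common effects and interactions 12. The members and gene lists were chosen with earlier results of these data known. Fold changes were given singly for members with an adjusted p under 0.1 or an unadjusted p under 0.05. Other pathway genes were named if called, at most the 4 smallest p per comparison, or else the 2 smallest. Likeness was Pearson's r of log2 CPM (prior count 2). The alternatives were dropping the low-count filter, requiring 10 counts in all libraries, RLE size factors, DESeq2 1.42.0, the current quasi-likelihood method, a replicate block, 1 model of all 24 libraries, each library left out, and, chosen after the counts were seen, a GC correction without and with the block. The fits were tested on simulated counts. The list members without a row were left out (Ftmt), and Hjv was matched through its older symbol. Some genes of the lists are counted but not reported singly here. P-values measure the spread between pools.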

Additional observations from a re-analysis of the deposited data

How the results depend on the processing

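Of 1158 values of 69 fold changes under alternatives, 1069 kept direction and side of the threshold, 29 lost the call, 56 gained it and 4 turned direction. Those that turned were Ireb2 (0.02 with the GC correction and 0.02 with it and the replicate block) and Ftl1 (−0.01 and −0.01) between the female sham regions. The cause was not tested, here or in what follows.

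Members called without a low-count filter were 1 (SNI, female mPFC), 2 (SNI, female ACC) and 1 (SNI with both sexes, mPFC), each against 0. The share of all genes called was then 2.19%, 1.38% and 1.71%. Also called were 2 (sex by SNI interaction, mPFC), 3 (region by SNI interaction, female) and 1 (region by SNI interaction, male), each against 0. There the shares of all genes were 2.79%, 2.16% and 0.407%. All 24 libraries in 1 model gave 0 in place of 1 (SNI, male mPFC), with 0% of all genes called. That model gave 2 in place of 0 (female against male, sham ACC), with 0.545% of all genes called. The GC correction gave 0 in place of 1 (SNI, male mPFC) and 1 in place of 2 (female sham regions). For female against male in the sham ACC it gave 1 in place of 0. The share of all genes called was 0.135%, 24.2% and 0.419% in the same order. The GC correction with the replicate block gave 1 in place of 2 (female sham regions) and 2 in place of 0 (female against male, sham mPFC). It also gave 1 in place of 0 for female against male in the sham ACC and for SNI with both sexes in the mPFC. The share of all genes called was 20.8%, 1.42%, 0.455% and 1.7% in the same order. Apart from the replicate block (last paragraph), the other alternatives that keep every library left each count within 1.5 times.

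With each library left out, the members called ranged from 0 to 3 (SNI, female mPFC), 0 to 1 (SNI, male mPFC), 0 to 2 (SNI, male ACC), 2 to 5 (female sham regions), 0 to 4 (male sham regions), 1 to 4 (male SNI regions), 0 to 1 (female against male, sham mPFC), 0 to 1 (sex by SNI interaction, mPFC), 0 to 1 (sex by SNI interaction, ACC) and 0 to 2 (region by SNI interaction, female). Counts raised by over 1.5 times came without replicate 3 of the female sham mPFC or without replicate 3 of the male sham ACC. Calls over all genes then rose from 1 to 2758 in the female mPFC (15.9% of all genes) and from 1 to 2305 in the male ACC (13.5%). Without these libraries the share of all genes called was 41.5% between the female sham regions, 27% between the male sham regions, 15.5% between the sexes in the sham mPFC, 18.3% and 9.65% for the sex by SNI interactions of the mPFC and ACC, and 11.6% for the female region by SNI interaction. Between the male SNI regions the share over all genes ranged from 12.4% to 22.3%.

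In no comparison were all 3 correlations between libraries of 1 replicate number over 0.1, and the main fits treat libraries as unpaired. Between the regions these were 0.03, −0.256 and −0.126 in sham females and 0.279, −0.212 and −0.063 in sham males. In SNI females they were 0.015, −0.09 and 0.096, and in SNI males 0.095, 0.238 and 0.139. Whether both regions of 1 number came from the same mice is not stated in the sources used here, and these values cannot settle it. The replicate block gave 1 member called in place of 0 for SNI with both sexes in the mPFC (Trf, −0.62, adjusted p = 0.0950, edgeR). Calls over all genes there rose from 0 to 43 (0.244%). In the male mPFC the block raised the calls over all genes from 84 to 745. Hfe had the fewest counts of the members, 74 to 140 per library; whether depth sets its spread was not tested.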
